A study of Homo sapiens with 18 samples.

Results

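The transcripts described here are the 179 long intergenic noncoding RNAs (LINC RNAs) whose symbol is LINC followed by a number and whose mean level over 18 RNA-seq libraries of U2OS-MycER cells was at least 1 eRPKM, a read count scaled to exon length and library depth. The table listed 496 such symbols among 23399 genes, of which 317 were below this mean and 37 of those were at 0 in every library. The mean chose the members, so their abundance is given as a description only. LINC00864, LINC01016 and LINC00327 were just inside the limit, at means of 1.07, 1.04 and 1.00 eRPKM. LINC01094, LINC00525 and LINC01299 were just outside it, at 0.998, 0.994 and 0.966 eRPKM.

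U2OS is an established human osteosarcoma cell line, here carrying MycER, a fusion of Myc and the estrogen receptor ligand-binding domain that becomes active when 4-hydroxytamoxifen (OHT, 400 nM) is added. Cells were transfected with an siRNA against RAD21, a subunit of the cohesin ring (siRAD21), or against Renilla luciferase (siCtrl), each without OHT, with ethanol as its solvent, or with it (siCtrl OHT and siRAD21 OHT), and collected at 24 or 48 h. The 48 h siCtrl and siCtrl OHT groups had 3 libraries each and the other 6 groups had 2. All groups carry the MycER transgene, so none shows the cells without it, and all come from this single line.

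Long noncoding RNAs are transcribed by RNA polymerase II and are mostly spliced and polyadenylated, with no long open reading frame. As a class they are less abundant and more restricted to particular cell types than messenger RNAs, and a minority have a known function, from sequestering proteins to regulating a neighbouring gene. Cohesin holds sister chromatids together and extrudes the chromatin loops that bring enhancers to promoters, and Myc binds promoters and enhancers at E-boxes, of which CACGTG is the canonical form.

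The promoters of 4 LINC RNAs are printed to show where this E-box lay, or did not lie, relative to the start site. They span 250 bases before to 50 bases after the start, read 5′ to 3′ on the strand of the gene, from RefSeq on GRCh38.p14, with CACGTG in capitals. LINC00657 (NORAD, chr20:36050911-36051210, minus strand) was the most abundant LINC RNA, and its box starts at position -138 relative to the start site. LINC01126 (chr2:43226961-43227260, plus strand, box at -39) and LINC00471 (chr2:231514328-231514627, minus strand, box at -158) were the members that rose with OHT in RAD21-depleted cells at 48 h and held the box. LINC00511 (chr17:72640423-72640722, minus strand), which fell with OHT in every comparison made, held none in this window.
LINC00657: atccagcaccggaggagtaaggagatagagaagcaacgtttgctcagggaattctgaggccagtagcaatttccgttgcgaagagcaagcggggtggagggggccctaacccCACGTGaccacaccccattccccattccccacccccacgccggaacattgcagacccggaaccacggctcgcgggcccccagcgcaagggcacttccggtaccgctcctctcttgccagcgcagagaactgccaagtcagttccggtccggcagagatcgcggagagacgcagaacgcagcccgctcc
LINC01126: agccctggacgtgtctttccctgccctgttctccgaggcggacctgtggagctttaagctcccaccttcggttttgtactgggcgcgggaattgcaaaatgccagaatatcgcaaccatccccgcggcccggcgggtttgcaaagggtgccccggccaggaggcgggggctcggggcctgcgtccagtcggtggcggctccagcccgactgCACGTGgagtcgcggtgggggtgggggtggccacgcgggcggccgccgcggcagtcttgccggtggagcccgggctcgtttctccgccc
LINC00471: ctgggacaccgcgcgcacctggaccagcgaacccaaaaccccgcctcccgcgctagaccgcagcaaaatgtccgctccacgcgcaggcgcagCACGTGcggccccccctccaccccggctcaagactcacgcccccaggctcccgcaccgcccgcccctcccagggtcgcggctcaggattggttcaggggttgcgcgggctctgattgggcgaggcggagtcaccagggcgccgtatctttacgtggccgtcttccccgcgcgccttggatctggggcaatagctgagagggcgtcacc
LINC00511: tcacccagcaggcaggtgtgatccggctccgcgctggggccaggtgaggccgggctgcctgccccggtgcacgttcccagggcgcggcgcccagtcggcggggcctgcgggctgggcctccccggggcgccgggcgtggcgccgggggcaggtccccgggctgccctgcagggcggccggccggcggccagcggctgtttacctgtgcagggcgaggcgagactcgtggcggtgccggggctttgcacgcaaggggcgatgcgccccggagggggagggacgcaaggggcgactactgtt

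RAD21 itself fell by 1.92 on the log2 scale at 24 h and by 2.99 at 48 h of silencing, with a level of 11.1 to 96.9 eRPKM over the libraries. The MYC row changed by -0.25 (adjusted p = 0.0146) at 24 h and by 0.12 (adjusted p = 0.109) at 48 h, neither past the size limit of 0.5. Reads of the MycER transgene can fall on this row and were not separated from those of the endogenous gene. The study reported lower Myc mRNA, by RT-PCR, and lower Myc protein on RAD21 silencing. Depth was 9647501 to 12678599 reads per library, of which 0.302 to 0.411% fell on LINC RNAs. The mesenchymal markers VIM (105 to 129 eRPKM) and SPARC (60.6 to 86.4 eRPKM) were high, while COL1A2 was at most 0.109 eRPKM. With OHT at 48 h, in siCtrl and siRAD21 cells respectively, FN1 changed by -1.13 and -1.13, COL1A1 by -0.91 and -1.84 and RUNX2 by -0.84 and -1.33 on the log2 scale, all called. Of the epithelial genes, EPCAM (2.56 to 12.9 eRPKM) was called higher, by 1.22 and 1.05, while CDH1 (0.559 to 1.74 eRPKM) was not called, at 0.31 and -0.45. The part of these markers in the OHT results was not tested. The leukocyte, liver and neural markers PTPRC, CD3E, ALB and SOX10 were at most at 0.917 eRPKM. The 2 siRAD21 OHT libraries at 48 h differed by less than sampling noise and count as 1 sample wherever a mean is given, although both entered the fit. RNA amounts per cell were not measured, so a change in level cannot be told apart from a change in the share of cells with the transcript.

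LINC RNAs were present at low levels with a steep rank order. Their median level was 3.04 eRPKM (quartiles 1.68 and 8.70), against 12.9 eRPKM for the 14993 genes tested, and 42 were at 10 eRPKM or more while 55 were below 2. The 6 most abundant held 22.8% of the summed level and the 20 most abundant held 50.5%. LINC00657 (NORAD), which binds PUMILIO proteins and protects chromosome number, led at 82.4 eRPKM. It was followed by LINC00958 at 59.3, LINC00998 at 51.0, LINC00493 at 49.0, LINC00839 at 41.9 and LINC00963 at 38.9 eRPKM. LINC00998 and LINC00493 are now annotated as coding for the small proteins SMIM30 and SMIM26. In the GENCODE annotation on GRCh37, 167 members were found, 37 of them through a newer symbol, and 146 were typed as lncRNA and 17 as protein coding.

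Most members were detected in every condition. In 143 of them the mean of every group was at 1 eRPKM or more, and 6 (LINC00473, LINC00314, LINC00704, LINC00313, LINC01016 and LINC00327) had a mean below 1 once their highest group was left out, so each is a member only through that group. The median ratio of highest to lowest group mean was 1.91, with 82 members over 2 and 20 over 4. Wide ranges belonged to LINC00511 (61.8 times), LINC00639 (47.6 times), LINC00473 (32.6 times) and LINC01164 (19.97 times), and no ratio is given for LINC00314, whose lowest group held 0 and 1 reads. LINC01134 had the smallest ratio (1.16 times), named after its values were seen, and LINC00958 one of 1.19 times. The siRAD21 group at 48 h was the highest for 69 members. The summed level was 1608 and 1596 eRPKM in its libraries. At 48 h it was 1343 to 1406 in siCtrl, 1263 to 1317 in siCtrl OHT and 1480 to 1502 in siRAD21 OHT cells, and these ranges did not overlap. Neither the count of 69 nor the summed level was set against all genes tested, so neither can be read as particular to LINC RNAs.

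**Figure D1:**
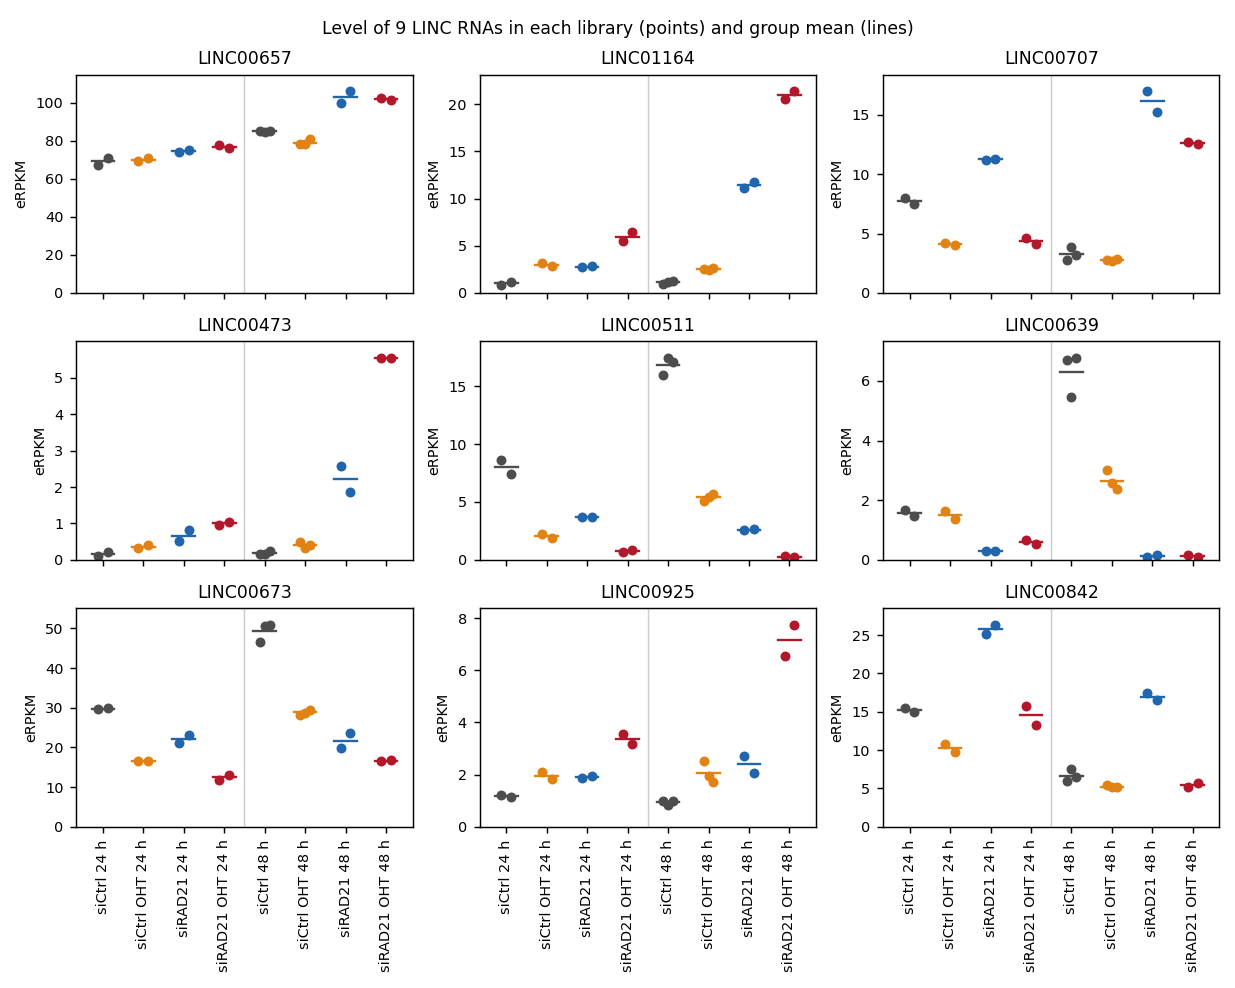
Level in eRPKM (y axis) of 9 LINC RNAs in each library (points) of the 8 groups (x axis), with lines at the group means. LINC00657 stayed between 67.3 and 106 eRPKM, LINC01164 was highest in siRAD21 OHT cells at 48 h (20.6 and 21.4) and LINC00511 was lowest there (0.320 and 0.225).

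Levels were compared between groups with limma on log2(eRPKM + 0.5), with Benjamini-Hochberg adjustment over 14993 genes, and a call required both an adjusted p below 0.05 and a change of more than 0.5 on the log2 scale, up or down. The added 0.5 makes fold changes of low transcripts smaller than the ratio of their levels. The first question was which LINC RNAs respond to loss of cohesin. At 24 h of RAD21 silencing 25 members were called (14.0%, against a background of 8.43% of all genes tested), 21 higher (background 5.83%) and 4 lower (background 2.6%), and 15 were called without siRAD21 24 h replicate 2. At 48 h 57 were called (31.8%, background 23.7%), 43 higher (background 12.6%) and 14 lower (background 11.2%). The 14 include LINC00704, a member only through siCtrl cells at 48 h, so its call is a description. The median log2 fold change of the members was 0.20 at 48 h and that of all genes -0.01, and at 24 h the medians were 0.13 and 0.002.

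The share called higher was thus above the background at both times, and the share called lower was near or below it. With quantile normalization the split at 24 h became 13 higher and 5 lower, and the member medians fell to 0.03 at 24 h and 0.10 at 48 h, where 39 were higher and 19 lower. Called shares also depended on level. Among members at 10 eRPKM or more 31.0% were called at 48 h against 18.3% of all genes at such levels, whereas for members from 1 to 2 eRPKM the shares were 27.3% and 29.8%. Of 346 antisense RNAs at a mean of 1 eRPKM or more, 65 were called higher and 38 lower at 48 h, with a median log2 fold change of 0.15.

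**Figure D2:**
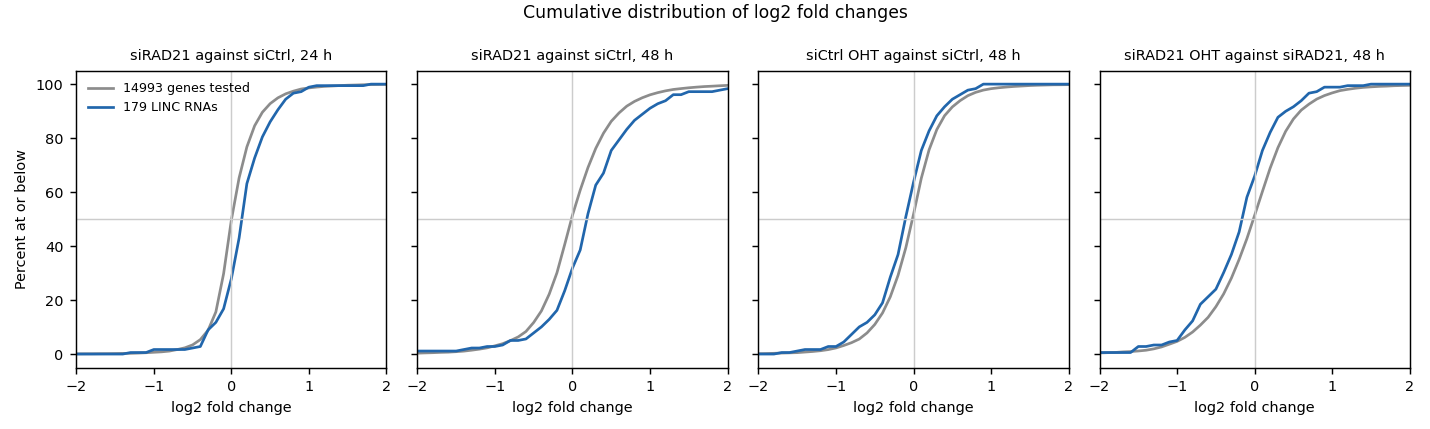
Percent of genes (y axis) at or below each log2 fold change (x axis) for the 179 LINC RNAs (blue) and the 14993 genes tested (grey) in 4 comparisons. The blue curve lies right of the grey one over most of its length for RAD21 silencing (medians 0.13 and 0.20, against 0.002 and -0.01) and left of it for OHT at 48 h (medians -0.10 in siCtrl and -0.18 in siRAD21 cells, against -0.01 and -0.02); with quantile normalization the member medians were 0.03, 0.10, -0.03 and -0.003 in the order of the panels.

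LINC01164, on GRCh37 chr10:133604719-133622535 (minus strand), showed the greatest rise among the members on RAD21 silencing at 48 h on the log2(eRPKM + 0.5) scale. It was at 0.940, 1.15 and 1.26 eRPKM in siCtrl and at 11.1 and 11.8 in siRAD21 libraries at 48 h. The ratio of the means was 10.2 and the log2 fold change 2.89 (SE 0.11, adjusted p = 1.52e-10). At 24 h it was at 0.891 and 1.21 against 2.71 and 2.86 eRPKM, a log2 fold change of 1.09 (SE 0.12, adjusted p = 1.85e-05). The groups did not overlap at either time, and the effect at 48 h exceeded that at 24 h by 1.80 (SE 0.16, adjusted p = 5.99e-06). At 24 h 104 members (58.1%) did not overlap, against 64.6% of all genes tested.

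LINC00707 (chr10:6821511-6884868, plus strand) was at 2.81, 3.87 and 3.2 eRPKM in siCtrl and 17.0 and 15.3 in siRAD21 cells at 48 h, with a log2 fold change of 2.14 (SE 0.10, adjusted p = 7.99e-10). LINC00473, a transcript known to be induced through cAMP and CREB, was at 0.174, 0.170 and 0.247 eRPKM in siCtrl and at 2.58 and 1.85 in siRAD21 cells at 48 h, resting on 7, 7 and 11 against 116 and 78 reads. Its ratio of means was 11.2, while the log2 fold change with the added 0.5 was 1.95 (SE 0.16, adjusted p = 1.89e-07). LINC00520 (chr14:56247850-56263449, minus strand) was at 2.43, 3.48 and 2.51 eRPKM in siCtrl and 10.7 and 11.2 in siRAD21 cells. These 3 transcripts were also called higher at 24 h, although for LINC00473 that call (0.79, SE 0.18) was lost without siCtrl 24 h replicate 1 (adjusted p = 0.0514) or siRAD21 24 h replicate 2 (adjusted p = 0.0695).

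LINC01021 (PURPL), a p53-induced RNA, had the highest level among the known members that rose. It was at 31.0, 28.2 and 29.1 eRPKM in siCtrl and 58.9 and 55.3 in siRAD21 cells at 48 h, with a log2 fold change of 0.94 (SE 0.08, adjusted p = 1.99e-07). LINC00911 was at 0.174, 1.01 and 0.627 against 4.03 and 5.14 eRPKM, and LINC00341 at 1.24, 0.637 and 1.51 against 3.63 and 4.20. LINC00911 rested on 1 to 31 reads per library, so its log2 fold change of 2.27 is the least precise of these (SE 0.36). LINC00341, which the annotation holds only as a synonym of the coding gene SYNE3, so that its identity as a noncoding RNA is uncertain, was called at 24 h as well, with the greatest member log2 fold change there (1.77, SE 0.24, adjusted p = 0.000101). LINC01096, LINC00898 and LINC01003 followed at 24 h with log2 fold changes of 0.97, 0.96 and 0.91.

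Of the transcripts that fell, LINC00639 (chr14:39207359-39417477, minus strand) changed most. It was at 6.69, 5.46 and 6.78 eRPKM in siCtrl and at 0.0983 and 0.168 in siRAD21 libraries at 48 h, where 5 and 8 reads remained. The siRAD21 mean was 47.4 times lower and the log2 fold change was -3.42 (SE 0.14, adjusted p = 2.53e-10). At 24 h it was at 1.69 and 1.47 against 0.314 and 0.289 eRPKM. Its level in siCtrl cells rose between 24 and 48 h by 1.71 on the log2 scale, while that in siRAD21 cells did not reach 1 eRPKM at either time.

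LINC00511 (chr17:70286232-70636611, minus strand), a transcript described as raised in several tumour types, was at 16.0, 17.5 and 17.1 eRPKM in siCtrl and 2.55 and 2.68 in siRAD21 cells at 48 h. The siRAD21 mean was 6.44 times lower, with a log2 fold change of -2.48 (SE 0.10, adjusted p = 2.75e-10), and at 24 h the log2 fold change was -1.02 (SE 0.11, adjusted p = 1.77e-05). LINC00704 (MANCR, chr10:4623487-4720408, minus strand), named for its association with mitosis, was at 3.09, 2.95 and 2.24 against 0.677 and 0.724 eRPKM at 48 h, a description, since it passed the 1 eRPKM limit only through these siCtrl libraries. LINC00673 was at 46.7, 50.6 and 50.9 against 19.8 and 23.5 eRPKM, the highest level among the 6 greatest falls, and LINC00312 was at 4.20, 3.15 and 5.07 against 1.21 and 1.46 eRPKM. LINC00669 fell from 7.86, 7.30 and 6.91 to 3.76 and 3.34 eRPKM. In each of these the siCtrl and siRAD21 libraries at 48 h did not overlap, as in all 57 members called. Over all members 117 (65.4%) did not overlap, against 70.1% of all genes tested.

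Members called at 24 h were mostly called at 48 h in the same direction. Of 21 called higher at 24 h, 16 (76.2%) were among the 43 at 48 h (37.2% of those), and the 4 called lower at 24 h, LINC00511, LINC00639, LINC00704 and LINC00987, were all among the 14 (28.6%). LINC00704 is a member only through siCtrl cells at 48 h, so its place among the 14 is a description. Over all genes tested the shares were similar, with 75.5% of those higher and 80.5% of those lower at 24 h called alike at 48 h (35.1% and 18.7% of the 48 h calls). The 24 h call of LINC00987 (-0.50) fell below the size limit without siCtrl 24 h replicate 2 (-0.48) or siRAD21 24 h replicate 2 (-0.49). No member was called in opposite directions. The change of the effect from 24 to 48 h was itself called in 21 members (11.7%, background 10.7%), 13 higher (background 3.85%) and 8 lower (background 6.86%). It exceeded 1 on the log2 scale for LINC01164, LINC00911, LINC00707, LINC00319, LINC00520 and LINC00473, and was below -1 for LINC00639, LINC00511, LINC00312, LINC00242, LINC00669 and LINC00634.

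**Figure D3:**
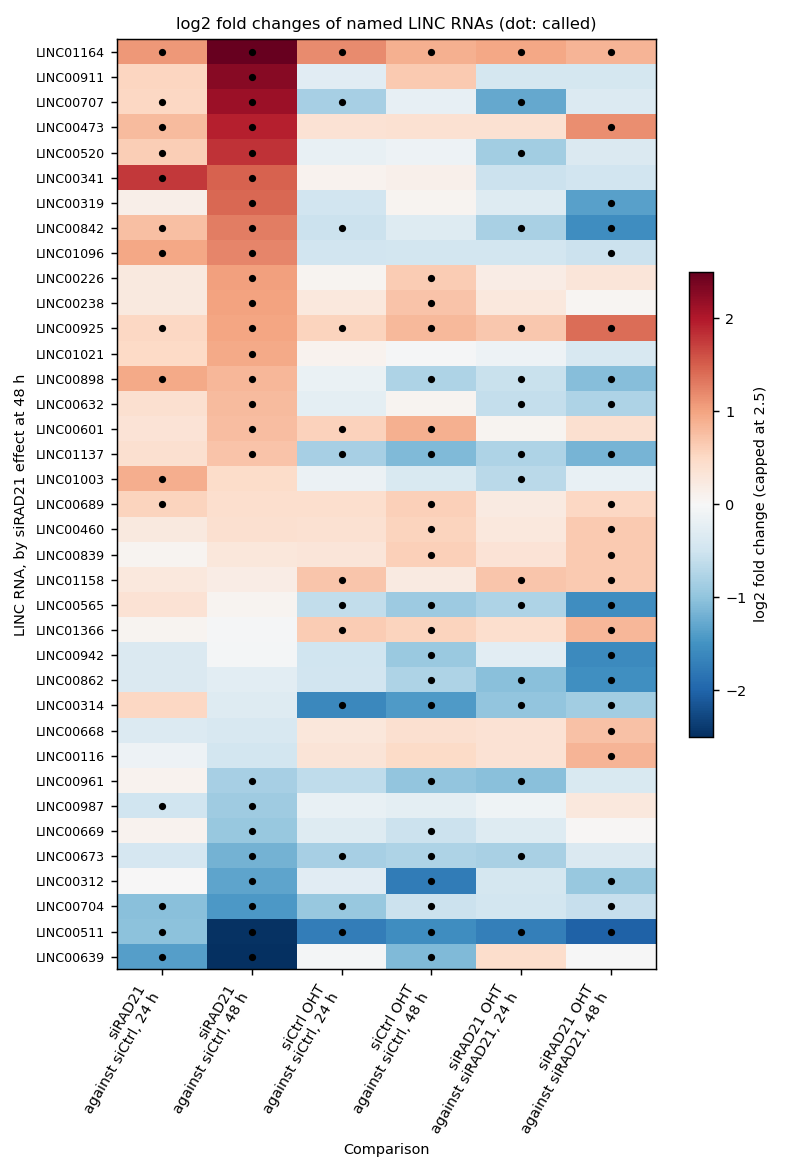
log2 fold change (colour, capped at 2.5) of 37 named LINC RNAs (rows, ordered by the RAD21 silencing effect at 48 h) in 6 comparisons (columns), with a dot where the change was called. LINC01164 carries a dot and a positive value in every column, and LINC00511 a dot and a negative value in every column.

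The next question was how LINC RNAs respond to MycER activation in cells with cohesin. In siCtrl cells 19 members were called at 24 h (10.6%, background 8.78%), 5 higher (background 3.68%) and 14 lower (background 5.1%). At 48 h 35 were called (19.6%, background 17.9%), 9 higher (background 7.78%) and 26 lower (background 10.1%), with a median log2 fold change of -0.10 against -0.01 for all genes. The 26 include LINC00314 and LINC00704, members only through siCtrl cells at 48 h, so their falls here are descriptions. The total share was therefore close to the background, and the split leaned to lower calls. At 48 h the share depended on level, with 9.62% of members from 2 to 5 eRPKM called against 27.5% of all genes at such levels. At 10 eRPKM or more the shares were 26.2% and 12.3%. Quantile normalization changed the split to 7 higher and 11 lower at 24 h and to 12 higher and 20 lower at 48 h, where the member median became -0.03.

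LINC00511 was lowered by OHT at both times. It was at 8.63 and 7.42 eRPKM in siCtrl against 2.26 and 1.88 in siCtrl OHT cells at 24 h, and at 16.0, 17.5 and 17.1 against 5.13, 5.40 and 5.69 eRPKM at 48 h. The log2 fold changes were -1.73 (SE 0.11, adjusted p = 2.39e-07) and -1.55 (SE 0.09, adjusted p = 1.07e-08). LINC00312 was at 0.879, 0.646 and 1.12 eRPKM in siCtrl OHT cells at 48 h, 4.69 times below its siCtrl mean. LINC01137 fell from 14.3, 16.7 and 14.3 to 6.57, 7.34 and 6.26 eRPKM and LINC00639 from 6.69, 5.46 and 6.78 to 3.02, 2.58 and 2.37 eRPKM. LINC00961, whose transcript encodes the small protein SPAAR, fell from 1.86, 1.94 and 2.22 to 0.505, 1.07 and 0.787 eRPKM. LINC00673 was at 28.3, 28.7 and 29.5 eRPKM under OHT, below all 3 siCtrl libraries. Over all members 78 (43.6%) did not overlap in this comparison, against 56.1% of all genes tested.

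Fewer members rose. LINC01164 was at 0.940, 1.15 and 1.26 eRPKM in siCtrl and at 2.51, 2.39 and 2.61 in siCtrl OHT cells at 48 h, with a log2 fold change of 0.90 (SE 0.10, adjusted p = 4.01e-06). LINC00601 was at 4.57, 5.47 and 3.97 against 7.19, 10.9 and 9.47 eRPKM, with the same log2 fold change of 0.90 (SE 0.13). LINC00925 (MIR9-3HG, chr15:89904810-89968214, plus strand), the host of the miR-9-3 gene, was at 0.994, 0.853 and 1.01 against 2.52, 1.96 and 1.73 eRPKM. Among abundant members, LINC00839 rose from 27.9, 30.6 and 29.6 to 42.7, 46.0 and 45.5 eRPKM and LINC00460 from 21.1, 22.6 and 20.4 to 27.7, 34.1 and 33.4 eRPKM. LINC00238, LINC00226 and LINC00689 were called with log2 fold changes of 0.72, 0.63 and 0.60, of which LINC00226 lost its call without siCtrl 48 h replicate 1 (0.37) and LINC00689 without siCtrl OHT 48 h replicate 1 (0.49). With quantile normalization LINC00839 (0.49) and LINC00460 (0.48) were just under the size limit.

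In RAD21-depleted cells, which share no library with the siCtrl comparison, OHT changed 24 members at 24 h (13.4%, background 11.9%), 3 higher (background 4.29%) and 21 lower (background 7.62%). At 48 h 56 were called (31.3%, background 28.6%), 15 higher (background 12.4%) and 41 lower (background 16.2%), and the member median was -0.18 against -0.02 for all genes. Quantile normalization moved the split to 7 higher and 17 lower at 24 h and to 18 higher and 29 lower at 48 h, and the 48 h member median to -0.003. From 2 to 5 eRPKM 26.9% of members were called at 48 h, against 38.9% of all genes at such levels. At 10 eRPKM or more the shares were 33.3% and 23.1%. Of the 26 members lower with OHT in siCtrl cells at 48 h, 19 (73.1%) were among the 41 lower in siRAD21 cells (46.3% of those). The 19 include LINC00314 and LINC00704, whose siCtrl calls at 48 h are descriptions. Of the 9 higher, 6 (66.7%) were among the 15 (40%): LINC00460, LINC00689, LINC00839, LINC00925, LINC01164 and LINC01366. Over all genes tested 75.6% of those lower and 75.9% of those higher in siCtrl cells were called alike in siRAD21 cells (47.3% and 47.8% of the calls there). No member was called in opposite directions.

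LINC00511 fell most on the log2 scale at 48 h. It was at 2.55 and 2.68 eRPKM in siRAD21 and 0.320 and 0.225 in siRAD21 OHT cells at 48 h, with a log2 fold change of -2.01 (SE 0.11, adjusted p = 6.11e-09). LINC00842 (chr10:47011753-47174018, minus strand) was at 17.4 and 16.5 against 5.26 and 5.70 eRPKM. LINC00862 (chr1:200222547-200369833, minus strand) was at 15.3 and 12.8 against 4.82 and 4.17 eRPKM. LINC00942 was at 4.53 and 4.98 against 1.29 and 1.18 eRPKM, LINC00565 at 4.33 and 2.85 against 1.00 and 0.740, and LINC00319 at 5.65 and 3.69 against 1.41 and 1.53. In each pair the OHT libraries were below both libraries without it. Over all members 126 (70.4%) did not overlap in this comparison, against 82.6% of all genes tested.

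LINC00925 rose most, from 2.73 and 2.08 to 6.55 and 7.75 eRPKM, with a log2 fold change of 1.40 (SE 0.15, adjusted p = 3.02e-06). LINC00473 rose from 2.58 and 1.85 to 5.55 and 5.53 eRPKM, but siRAD21 OHT at 48 h is the group through which it passed the 1 eRPKM limit, so this difference and its interaction are descriptions. LINC01164 rose from 11.1 and 11.8 to 20.6 and 21.4 eRPKM. LINC00116, which encodes the mitochondrial microprotein mitoregulin, rose from 10.2 and 8.71 to 18.3 and 16.6 eRPKM. LINC01366 and LINC00668 had log2 fold changes of 0.82 and 0.73. LINC00839 and LINC00460 reached 56.2 and 58.3 and 44.4 and 45.5 eRPKM, above each of their libraries in the other 48 h groups.

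Whether the OHT effect differed between siRAD21 and siCtrl cells was tested as an interaction. At 24 h no member and no other gene was called by limma (background 0%), and voom on recovered reads also called 0 members, while 10 members and 906 genes in all had an unadjusted p below 0.05. At 48 h 13 members were called (7.26%, background 7.3%), a share at the background, with 4 higher (background 3.33%) and 9 lower (background 3.97%) in siRAD21 cells. Quantile normalization gave 8 higher and 8 lower, and 8 members in all were called without siRAD21 OHT 48 h replicate 1.

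Of the 13, LINC00842 had the smallest adjusted p. OHT lowered it by 1.55 on the log2 scale in siRAD21 cells, and in siCtrl cells it was at 5.96, 7.57 and 6.51 without and 5.40, 5.15 and 5.22 eRPKM with OHT, a difference between the effects of -1.23 (SE 0.13, adjusted p = 3.93e-05). LINC00319 was at 1.5, 1.26 and 1.39 eRPKM in siCtrl and 2.18, 1.31 and 1.12 in siCtrl OHT cells, and its effects differed by -1.44 (SE 0.30, adjusted p = 0.00465). LINC00862 fell in both siRNA groups and further in siRAD21 cells, with 17.3, 15.6 and 17.9 against 10.2, 9.36 and 9.59 eRPKM in siCtrl cells and a difference of -0.77 (SE 0.12, adjusted p = 0.000642). LINC00294 was at 13.9, 12.8 and 13.6 eRPKM in siCtrl, 13.2, 11.4 and 12.2 in siCtrl OHT, 20.4 and 19.2 in siRAD21 and 10.6 and 10.8 in siRAD21 OHT cells. Its difference was -0.73 (SE 0.12, adjusted p = 0.000812).

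For LINC00639 the interaction was positive (1.11, SE 0.20, adjusted p = 0.00188). OHT lowered it in siCtrl cells, whereas it was at 0.0983 and 0.168 without and 0.178 and 0.0874 eRPKM with OHT in siRAD21 cells, which rest on 4 to 8 reads. With voom on recovered reads its adjusted p was 0.158. LINC00473, a member only through siRAD21 OHT cells at 48 h, was called at 0.78 (SE 0.23, adjusted p = 0.031), a call that the fit of the 4 groups alone did not make (adjusted p = 0.0511). For LINC01164 the interaction at 48 h was -0.05 (SE 0.16, adjusted p = 0.86), and for LINC00925 it was 0.59 (SE 0.20, adjusted p = 0.056), so neither passed the test.

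**Figure D4:**
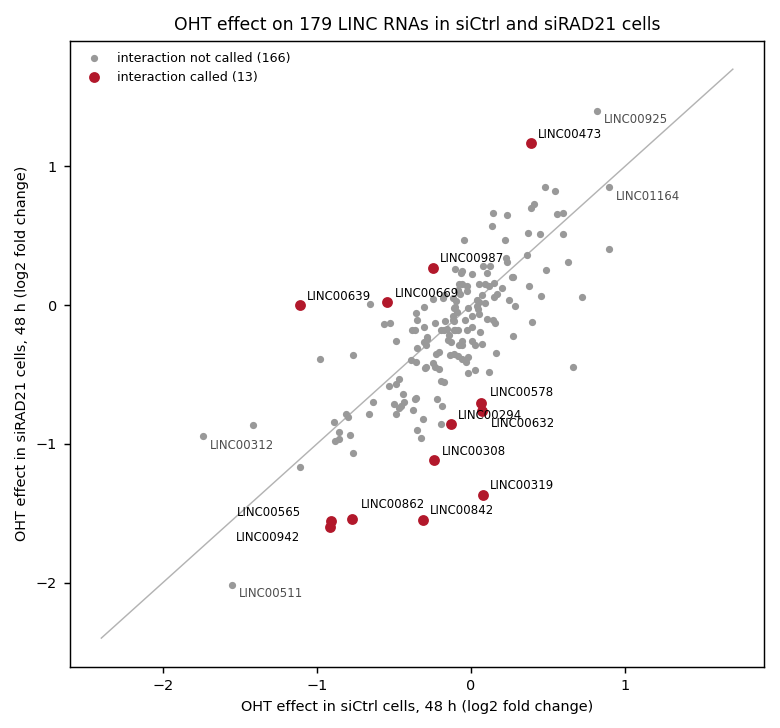
log2 fold change with OHT at 48 h of the 179 LINC RNAs in siCtrl cells (x axis) and siRAD21 cells (y axis), with the line of equal effects and the 13 members with a called interaction in red. LINC00842 and LINC00319 lie below the line (-0.31 and 0.08 in siCtrl, -1.55 and -1.37 in siRAD21 cells), and LINC00511 is lowest on the y axis (-2.01).

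Several of these transcripts also moved with time in culture alone. Between 24 and 48 h in siCtrl cells 27 members were called (15.1%, background 12.4%), 14 higher (background 5.53%) and 13 lower (background 6.91%), and 18 higher and 8 lower when libraries were centred on their medians. The 14 include LINC00704, a member only through siCtrl cells at 48 h, so its rise is a description. LINC00639 (1.71), LINC00312 (1.28), LINC00589 (1.14) and LINC00511 (1.03) rose the most on the log2 scale. LINC00842 (-1.13), LINC00235 (-1.12) and LINC00707 (-1.12) fell the most. LINC00235 was at 14.3 and 13.2 eRPKM at 24 h and 5.67, 6.77 and 5.78 at 48 h. Time and any difference between the 24 and 48 h harvests cannot be told apart.

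Grouped by role, the 5 measured of 8 LINC rows listed as encoding a small protein gave 1 call in each siRNA or OHT comparison at 48 h. Of all genes tested 23.7% were called on RAD21 silencing at that time, and 17.9% and 28.6% with OHT in siCtrl and siRAD21 cells. The list does not hold all of the 17 members typed as protein coding, for example LINC00094 (BRD3OS), so these calls do not describe the coding members as a whole. LINC00961 was called lower on RAD21 silencing and with OHT in siCtrl cells. It was also called lower with OHT in siRAD21 cells at 24 h, whereas LINC00116 was called higher with OHT in those cells at 48 h. LINC00116 was at 12.6, 13.9 and 13.3 eRPKM in siCtrl and 17.9, 19.9 and 18.4 in siCtrl OHT cells, a log2 fold change of 0.48 that was under the size limit. LINC00493 was at 50.5 to 53.8 eRPKM in siCtrl and 47.1 and 51.4 in siRAD21 cells at 48 h, and these ranges overlapped. LINC00998 and LINC01420 (NBDY, a P-body protein) had log2 fold changes with OHT in siCtrl cells of 0.27 and -0.30 at 48 h.

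Of 18 LINC RNAs listed for a known role or inducer, 16 were in the table and 14 were members. On RAD21 silencing at 48 h LINC01021, LINC00473, LINC00632 and LINC00520 were called higher (background 12.6%) and LINC00511 lower (background 11.2%), with a median of 0.25 on the log2 scale. LINC00632, the precursor of the circular CDR1-AS, was at 2.5, 1.5 and 1.59 against 3.67 and 3.37 eRPKM, and its exons share 789 bases with CDR1. LINC00657 (NORAD) was at 85.0, 84.4 and 85.3 eRPKM in siCtrl and 99.8 and 106 in siRAD21 cells, which differ by 0.28 on the log2 scale (SE 0.04, adjusted p = 1.9e-05), below the size limit of a call. With OHT at 48 h LINC00460 was called higher (background 7.78%) and LINC00511 lower (background 10.1%) in siCtrl cells. In siRAD21 cells LINC00473, as a description, and LINC00460 were called higher (background 12.4%) and LINC00632 and LINC00511 lower (background 16.2%). Of 21 tested noncoding RNAs without a LINC number, among them NEAT1, PVT1, RMRP and RPPH1, 5 were called higher (background 12.6%) and 3 lower (background 11.2%) on RAD21 silencing at 48 h. Their median was 0.04, and 5 were called lower with OHT in siCtrl cells at 48 h (background 10.1%).

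Across the 6 siRNA and OHT comparisons 94 members (52.5%) were called at least once, against 45.4% of all genes tested, and 85 in none. These shares were not matched for level, on which calls depended. Among the most abundant, LINC00958 was at 52.3 to 67.0 eRPKM and LINC00963 at 33.7 to 44.7 eRPKM over all 18 libraries. The 9 members called in all 4 OHT comparisons (5.03%, against 5.6% of all genes) included LINC01164 and LINC00925, higher in each, and LINC00511, lower in each. The siCtrl call of LINC00925 at 24 h (0.55) was lost without siCtrl 24 h replicate 2 (adjusted p = 0.0818) or siCtrl OHT 24 h replicate 1 (adjusted p = 0.113). LINC01137 was also lower in each, and was at 25.3 and 24.5 eRPKM in siRAD21 cells against 10.2 and 11.6 in siRAD21 OHT cells at 48 h.

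The position of LINC RNAs relative to coding genes was described next. Exon bases of 87 members are shared with another gene, in 69 mostly with one on the opposite strand, and the libraries carried no strand information, so reads from the partners cannot be told apart there. A further limit is depth, since 94 members had fewer than 50 reads in their lowest library. The nearest coding gene was also tested for 122 members, 27 of them with start sites within 10 kb. Of the 43 of these members called on RAD21 silencing at 48 h, the neighbour was called in the same direction for 7, in the opposite direction for 9 and not at all for 27, where 23.7% of all genes were called. With OHT the counts were 8, 1 and 18 of 27 in siCtrl cells (17.9% of all genes called) and 10, 2 and 27 of 39 in siRAD21 cells (28.6% of all genes called) at 48 h.

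LINC01096 lies 3293 bp from NKX3-2, a homeobox gene of cartilage development, and rose together with it on RAD21 silencing at 48 h, by 1.23 and 1.79 on the log2 scale. It was at 4.87, 5.14 and 5.57 eRPKM in siCtrl and 12.1 and 13.5 in siRAD21 cells. LINC00634, which was not among the listed small-protein rows but is now annotated as SMIM45, fell by 0.63 and CENPM, a centromere protein gene 4998 bp away, fell by 0.83. LINC00319 moved against SIK1, a salt-inducible kinase gene 19470 bp away. It rose by 1.43 where SIK1 changed by -0.79 on RAD21 silencing, and fell by 1.37 where SIK1 changed by 1.53 with OHT in siRAD21 cells, both at 48 h. Both comparisons use the same siRAD21 libraries, so they are not separate instances. For the members with the widest changes the nearest coding gene was not called: LINC01164 is 125420 bp from PPP2R2D (0.03), LINC00511 is 452240 bp from SLC39A11 (-0.21) and LINC00639 is 161373 bp from SEC23A (-0.00). Across the 27 close pairs, which share library and locus, the correlation of log2 fold changes on RAD21 silencing at 48 h was 0.632, and 0.433 over the 26 pairs without LINC01096. Over all 122 pairs it was 0.0384, and over 39 pairs more than 100 kb apart -0.06. With OHT at 48 h the close pairs gave 0.609 in siCtrl and 0.287 in siRAD21 cells, against 0.261 and 0.365 for pairs over 100 kb apart.

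Promoter sequences were matched for 127 members. CACGTG, searched once since it is its own reverse complement, was in 9 of them (7.09%), against 2030 of 27305 promoters of the same length in the RefSeq table (7.43%). It was in 2 of 11 members that rose with OHT in siRAD21 cells at 48 h and in 0 of 7 that rose in siCtrl cells. LINC00471, whose printed promoter holds it, was at 2.36 and 2.91 eRPKM in siRAD21 and 4.69 and 4.21 in siRAD21 OHT cells at 48 h, with a log2 fold change of 0.66 (adjusted p = 0.0016). LINC01126, the other one, starts 604 bp from ZFP36L2 on the opposite strand. It was at 5.24 and 3.93 against 6.80 and 6.62 eRPKM, a log2 fold change of 0.52 (adjusted p = 0.015). LINC01126 and LINC00471 are named for the motif, after their values were seen. The box was in 1 of 26 members that fell with OHT in siRAD21 cells and 0 of 19 that fell in siCtrl cells. A match of letters is no evidence of binding, and LINC01164, LINC00639, LINC00707 and LINC00520 had no promoter matched.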

How the data were processed

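RNA-seq of U2OS-MycER cells covered 18 libraries in 8 groups, described in the study's methods as biological replicates. The authors depleted ribosomal RNA, made libraries without strand information, aligned reads to hg19 with TopHat2 2.0.8 and removed duplicate reads; featureCounts 1.4.5 is named in the submitters' processing notes. The values the authors deposited are eRPKM, an RPKM over exons. Whole reads were recovered for 22006 genes within 0.01 read, with library depths of 9647501 to 12678599 reads, and the recovered reads held 99.4 to 99.6% of each depth. Duplicate removal caps counts of short or abundant transcripts: LINC00657 reached 54.4% of its cap and the median member 3.08%.

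Genes with a mean of at least 1 eRPKM (14993) were fitted on log2(eRPKM + 0.5) with limma 3.58.1 in R 4.3.3, with 8 group means, a variance trend and Benjamini-Hochberg adjustment. Calls required an adjusted p below 0.05 and a change of more than 0.5 on the log2 scale, and all 18 libraries entered the fit. eRPKM are not counts, so limma replaced the study's count test, and voom on recovered reads was run as an alternative. The siRNA and OHT comparisons at each time share libraries: the siRAD21 libraries enter both the silencing and the OHT comparison in siRAD21 cells.

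The rule for naming covered RAD21 and MYC, the 6 most abundant members, the 3 on each side of the limit, the 6 greatest called rises and falls per comparison, each member with a called interaction, the listed members and nearest coding genes. The text does not print every member under this rule, such as LINC01158, LINC00442 and LINC01060. Counts of called values of named members include those not printed. The members and lists were chosen with earlier results of these data known. Same-numbered siCtrl and siCtrl OHT libraries at 48 h deviated together (correlations 0.258, 0.130 and 0.157). So did siRAD21 libraries at 48 h with siCtrl (0.099 and 0.146) and siCtrl OHT ones (0.168 and 0.111). At 24 h siCtrl libraries gave -0.134 with siCtrl OHT and -0.169 with siRAD21 OHT ones, and all other pairs lay from -0.064 to 0.071. The main fit did not use replicate numbers. Positions are from GENCODE on GRCh37, the build of the files. Alternatives were pseudocounts, filters, scalings, thresholds, a replicate block, leaving out each library, and voom; undoing duplicate removal and a crossed block were added after the data had been seen. 1 LINC symbol is not reported here. Figures were drawn with matplotlib 3.10.9 (Python 3.11.15), with pandas 2.3.3 and numpy 2.4.6 for tables.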

Additional observations from a re-analysis of the deposited data

Results flagged for a closer look

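The OHT effect differed between siRAD21 and siCtrl cells at 48 h, by the interaction test in limma, for 13 LINC RNAs (7.26%, background 7.3%), a share at the background. The difference, as effect in siRAD21 minus effect in siCtrl cells on the log2 scale, was 1.11 for LINC00639, 0.78 for LINC00473, 0.56 for LINC00669 and 0.52 for LINC00987. It was -1.44 for LINC00319, -1.23 for LINC00842, -0.88 for LINC00308, -0.83 for LINC00632 and -0.77 for LINC00578. It was -0.77 for LINC00862, -0.73 for LINC00294, -0.68 for LINC00942 and -0.65 for LINC00565. LINC00565 was at 4.33 and 2.85 eRPKM in the siRAD21 libraries, and without siRAD21 48 h replicate 1 its difference was -0.39 (adjusted p = 0.255). LINC00308 was at 23.3 and 17.0 eRPKM in siRAD21 and 7.55 and 10.5 in siRAD21 OHT cells. Its difference was -0.66 without siRAD21 48 h replicate 1 (adjusted p = 0.0949) and -0.65 without siRAD21 OHT 48 h replicate 1 (adjusted p = 0.092). LINC00578 lost its call without siRAD21 OHT 48 h replicate 1 (-0.55, adjusted p = 0.0913), LINC00669 without siRAD21 48 h replicate 2 (0.49) and LINC00987 without any of 4 libraries (0.46 to 0.50). LINC00473 is a member only through siRAD21 OHT cells at 48 h, so its difference is a description. Among other libraries, its call was lost without siRAD21 48 h replicate 2 (0.58, adjusted p = 0.132). That of LINC00632 was lost without siRAD21 OHT 48 h replicate 1 (-0.73, adjusted p = 0.136), also among other libraries.

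The RAD21 silencing effect differed between 48 and 24 h, by the test of the difference, for 21 LINC RNAs (11.7%, background 10.7%). The 12 of them named under the rule follow. As effect at 48 h minus effect at 24 h on the log2 scale, the difference was 1.80 for LINC01164, 1.73 for LINC00911, 1.62 for LINC00707, 1.28 for LINC00319, 1.19 for LINC00520 and 1.17 for LINC00473. It was -2.05 for LINC00639, -1.46 for LINC00511, -1.34 for LINC00312, -1.10 for LINC00242, -1.05 for LINC00669 and -1.01 for LINC00634. Such a difference also holds any change with time in siCtrl cells. The mean of LINC00312 was 1.387 eRPKM at 24 h and 4.139 at 48 h in siCtrl, and 1.415 and 1.333 in siRAD21 cells. The call for LINC00911, with 1 to 31 reads per library, was lost on leaving out any 1 of several libraries. The difference was 1.44 without siRAD21 24 h replicate 2, and 1.586 and 1.869 without siCtrl 24 h replicate 1 or 2. It was 1.885 and 1.569 without siRAD21 48 h replicate 1 or 2, and 1.409 without siCtrl 48 h replicate 1 (adjusted p = 0.0549). The LINC00911 call was also lost with a pseudocount of 0.1 (adjusted p = 0.06955) and when all genes with a value above 0 were fitted (adjusted p = 0.0522). The LINC00319 call was lost without siCtrl 24 h replicate 2 (adjusted p = 0.0501) or siRAD21 48 h replicate 1 (adjusted p = 0.0553). No group held enough libraries to test for outlying ones.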

How the results depend on the processing

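Of 209 counts of called members under an alternative, 185 were within 1.5 times the reported one. Requiring a mean of 5 eRPKM, which leaves fewer members, gave 10 and 25 called for RAD21 silencing at 24 and 48 h, 19 for OHT in siCtrl cells at 48 h, 13 and 24 for OHT in siRAD21 cells at 24 and 48 h, 5 for the interaction at 48 h, 11 for the change of the silencing effect and 11 for time in siCtrl cells. With no limit on the fold change the counts were 93 for silencing at 48 h, 37 and 71 for OHT in siCtrl cells at 24 and 48 h, 45 for OHT in siRAD21 cells at 24 h and 65 for time. With a log2 limit of 1 they were 5 and 21 for silencing, 3 and 5 for OHT in siCtrl cells, 4 and 11 for OHT in siRAD21 cells (24 and 48 h each), 3 for the interaction at 48 h, 12 for the change of the silencing effect and 7 for time. Leaving out 1 library at a time gave 15 to 23 (silencing, 24 h; 15 without siRAD21 24 h replicate 2), 53 to 59 (48 h), 16 to 21 and 34 to 40 (OHT in siCtrl cells), 21 to 25 and 46 to 54 (OHT in siRAD21 cells), 0 to 0 and 8 to 13 (interaction; 8 without siRAD21 OHT 48 h replicate 1), 15 to 20 (change of the silencing effect) and 23 to 32 (time).

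The replicate block gave 25 and 55 for silencing, 19 and 35 for OHT in siCtrl, 23 and 55 for OHT in siRAD21 cells, 0 and 16 for the interaction and 20 for the change of the silencing effect; it could not be fitted for time, and it lost 0 of 99 called values of named members. With siCtrl 24 h numbers crossed, added after the data had been seen, the counts were 25, 55, 20, 35, 24, 56, 0, 16 and 21. Of 111 called values of named members, 86 stayed called in every setting other than the fold limits and 0 reversed in any; 4 were lost with voom, 6 with quantile normalization, and 3 of 28 with the siRAD21 OHT 48 h libraries averaged. The interaction calls of LINC00473, LINC00632 and LINC00565 were each lost on leaving out any 1 of several libraries and when only the groups compared were fitted. The cause was not tested. Depth limits the low members: 94 had fewer than 50 reads in some library.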
